A study of Mus musculus with 6 samples.

Results

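The keratin-associated proteins, encoded by the Krtap genes, are small proteins made in the cells of the growing hair shaft, where they embed and cross-link the keratin filaments. The Krtap genes described here are all rows of the deposited table whose Ensembl identifier carries a symbol beginning with Krtap in GENCODE M21, which gave 57 of 49452 rows. The 6 libraries hold total RNA of C57BL/6 mouse epidermis, separated at E19.5, close to birth. The labels give 3 libraries as Rictor -/- (titled ricEKO, numbers 263, 265 and 266) and 3 as Control (titled ctrl, numbers 261, 262 and 264). They do not say which promoter or allele removed Rictor, or whether the libraries are from different animals. The values are FPKM, sequenced fragments scaled to transcript length and library size, so levels of different genes can be compared per length. The p-values therefore reflect the spread of these 6 libraries alone, which may be technical.

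Krtap proteins are usually sorted by their amino acids. Some are rich in cysteine, whose sulphur forms the disulphide bonds that harden hair, and others are rich in glycine and tyrosine. The genes are short, lie in clusters of close copies and are switched on late, after the hair keratins, as shaft cells move up from the matrix of the follicle. In the mouse, the first hair shafts form in the days before birth. Separated epidermis can keep parts of the follicles, and in such bulk samples fewer shaft cells and less RNA per cell cannot be told apart.

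Rictor itself, a subunit of mTOR complex 2, does not check the labels. It was listed at 6.83, 7.04 and 6.86 FPKM in the libraries labelled ricEKO and at 5.63, 6.02 and 4.37 FPKM in the controls, which is not lower (log2 difference 0.33 ± 0.11, SE; limma adjusted p = 0.0695). An FPKM summed over a whole gene still counts the exons that a deletion leaves. All directions below are those of the libraries labelled ricEKO against the libraries labelled ctrl. Values in triplets follow the order 263, 265 and 266 for the ricEKO-labelled libraries and 261, 262 and 264 for the controls. Each library's FPKM summed to between 609375 and 672925. Relative depths read from the smallest value steps were 1 to 1.21 times that of control 261, but read counts per gene are unknown. Markers of epidermis were present at high levels, with Krt10, of the differentiating layers, at 11210, 11080 and 11990 FPKM in the ricEKO-labelled libraries and 12680, 13050 and 13020 FPKM in the controls. Over all 13500 tested genes the median log2 difference was -0.06.

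Of the 57 Krtap rows, 23 lie in the cluster on chromosome 11 (99550130 to 99993994 on GRCm38) and 25 in the cluster on chromosome 16 (88610705 to 89571183). A further 5 lie on chromosome 7 (142174535 to 142304594), 2 on chromosome 10 (77720599 to 77827095) and 2 on chromosome 1 (83041524 to 83061921). All of these except Krtap14, Krtap15 and Krtap5-1 have their exons in 1 block in GENCODE M21, and the 54 others thus have no intron. Tested genes had to reach a mean of 1 FPKM in either group, which 44 Krtap genes did. Among these, 38 reached it in both groups and 6 in the controls alone, so for those 6 the filter itself favoured a lower value. The tested member nearest the limit was Krtap29-1, with a control mean of 1.06 FPKM, and the nearest left out was Krtap27-1, with 0.718 FPKM.

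The starts of many of these genes share a short sequence. RefSeq promoters of GRCm38.p6 were found for 51 of the 57 genes. The 6 letters of the TATA box, TATAAA, stood on the sense strand 45 to 16 bases before the annotated start in 32 of those 51 promoters (62.7%), against 639 of all 27025 promoters in the table (2.36%). On either strand of the 250 bases before the start, the same letters were in 41 of 51 Krtap promoters (80.4%) and in 3504 of 27025 promoters (13%). In the narrow window, 45 to 16 bases before the start, 22 of 31 promoters of members that fell held TATAAA (71%). Of 7 promoters of tested members without a call 4 held it there (57.1%). Over the 250 bases it was in 28 of 31 (90.3%) and 6 of 7 (85.7%). Of the promoters of 9 hair shaft keratins that were found, 4 held it in the narrow window. The letters CTTTGA, a core read by LEF and TCF factors, were in 12 of 51 Krtap promoters (23.5%) on either strand over 250 bases, and in 3797 of 27025 promoters (14%). They were in 11 of 31 promoters of members that fell (35.5%) and 1 of 7 without a call (14.3%). Of the 9 shaft keratin promoters 5 held CTTTGA (55.6%). In Krtap10-4 and Krtap13-1 the letters TATAAA lie farther from the annotated start than the narrow window reaches. A match is a description of the letters and not of factor binding. Close copies can have nearly the same promoter, as Krtap31-1 and Krtap31-2 do, so the promoters are not independent cases. The 90 bases before the start are shown, 5′ to 3′ and with TATAAA in capitals, for the 4 most abundant members that fell and have the match and then for Krtap17-1, which did not pass the test.
Krtap8-1 (chr16:89487953-89488042, minus strand): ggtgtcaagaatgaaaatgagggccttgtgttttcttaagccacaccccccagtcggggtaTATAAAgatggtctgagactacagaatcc
Krtap11-1 (chr16:89571184-89571273, minus strand): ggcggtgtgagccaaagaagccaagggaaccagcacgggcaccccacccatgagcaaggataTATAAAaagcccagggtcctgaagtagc
Krtap3-1 (chr11:99566631-99566720, minus strand): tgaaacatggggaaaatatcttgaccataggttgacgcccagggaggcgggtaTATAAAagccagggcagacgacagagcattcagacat
Krtap22-2 (chr16:89010760-89010849, minus strand): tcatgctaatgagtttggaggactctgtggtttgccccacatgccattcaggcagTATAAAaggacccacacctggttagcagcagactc
Krtap17-1 (chr11:99993995-99994084, minus strand): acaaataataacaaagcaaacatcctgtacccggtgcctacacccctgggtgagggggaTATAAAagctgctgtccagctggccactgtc
All 5 carry the box 28 to 37 bases before the start, Krtap17-1 among them at 31 bases.

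Most Krtap genes were lower in the ricEKO-labelled libraries. Of the 44 tested members 35 fell and 0 rose by limma at an adjusted p threshold of 0.05, where 15.6% of all tested genes fell and 7.91% rose. At an unadjusted p under 0.05, Krtap19-3, Krtap28-10 and Krtap21-1 were also lower, and 0 were higher. The median log2 difference over the 44 was -1.02, on the log2(FPKM + 1) scale used for every difference here. All 44 differences were below 0, as were 58.8% of those of all tested genes. The median ratio of mean FPKM, ricEKO-labelled over control, was 0.421. Of the 38 members that reached 1 FPKM in both groups 32 fell, with a median of -1.05. With a filter on the mean over all 6 libraries instead, which favours neither group and was chosen after seeing the data, 33 of 39 tested members fell and 0 rose. Of all genes tested with that filter 15.5% fell. In 38 of the 44 tested members all 3 ricEKO-labelled libraries lay below all 3 controls, which was so in 29.2% of all tested genes. Summed over all 57 members, Krtap FPKM was 357, 282 and 319 in the ricEKO-labelled libraries, against 895, 593 and 618 in the controls. The group means were 319 ± 37.6 FPKM and 702 ± 168 FPKM for ricEKO-labelled and control libraries (SD, n = 3 each). The balance of directions over all genes depended on scaling, since 33.7% of called genes were higher as deposited, 45.2% after median scaling, 47.9% after trimmed mean or quantile scaling and 51.9% after a length adjustment. After median, trimmed mean and quantile scaling and the length adjustment 34, 32, 33 and 27 of the 44 Krtap genes fell, and 0 rose. In the same order, 12.6%, 12.3%, 12.3% and 11.4% of all tested genes fell.

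**Figure D1:**
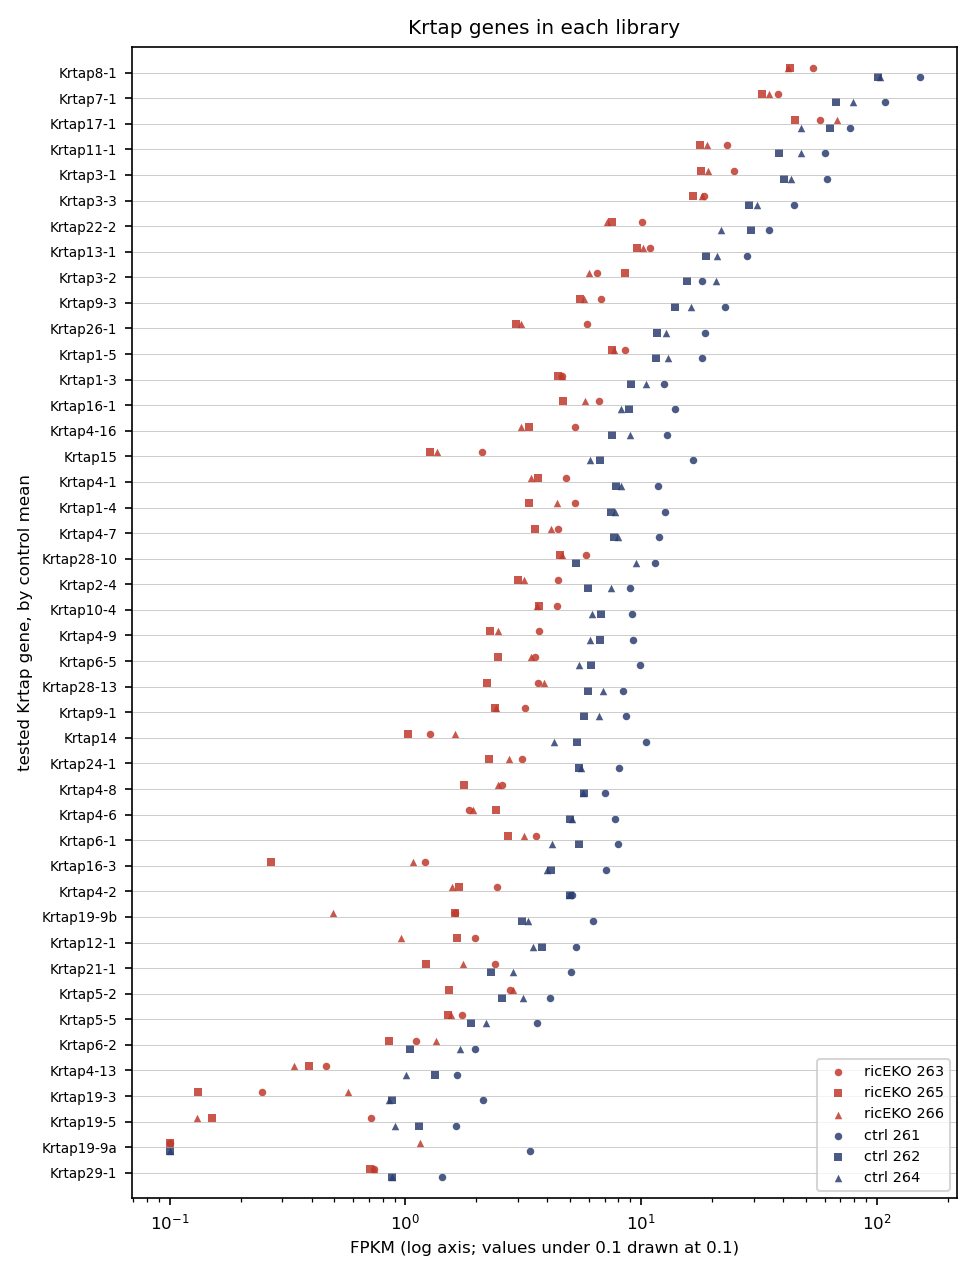
FPKM of each of the 44 tested Krtap genes (rows, by control mean) in each library, on a log axis with values under 0.1 drawn at 0.1, with ricEKO-labelled libraries in red above the controls in blue. In 38 rows the 3 red points lie left of the 3 blue points, and in Krtap17-1, at place 3 from the top, they mix.

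A few members held most of the Krtap RNA. The 6 most abundant in the controls, Krtap8-1, Krtap7-1, Krtap17-1, Krtap11-1, Krtap3-1 and Krtap3-3, made up 60.4%, 61.2% and 62.9% of the summed Krtap FPKM in the ricEKO-labelled libraries and 56.2%, 57.0% and 56.8% in the controls. Of these 6, 5 fell. Krtap8-1 (ENSMUSG00000059632, chromosome 16, 89487379 to 89487952, minus strand) encodes a small glycine- and tyrosine-rich shaft protein and was the most abundant in the controls. Krtap8-1 stood at 53.7, 42.8 and 41.9 FPKM in the ricEKO-labelled libraries, against 151, 101 and 103 FPKM in the controls. Its means were 46.1 ± 6.57 FPKM in the ricEKO-labelled libraries and 118 ± 28.7 FPKM in the controls (SD, n = 3 each), a log2 difference of -1.32 ± 0.18 (SE; limma adjusted p = 0.005004). The highest ricEKO-labelled library, 263, was well below the lowest control, 262.

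Next in order came Krtap7-1 (ENSMUSG00000056706, chromosome 16, 89507703 to 89508323, minus strand), of the same cluster. Krtap7-1 stood at 38.1, 32.6 and 34.98 FPKM in the ricEKO-labelled libraries, against 108, 66.9 and 78.8 FPKM in the controls, and it fell by 1.22 on the log2 scale (SE 0.17, limma adjusted p = 0.00563). Krtap11-1 stood at 23.2, 17.8 and 18.99 FPKM in the ricEKO-labelled libraries, against 60.3, 38.4 and 47.7 FPKM in the controls. Krtap11-1 (ENSMUSG00000091212, chromosome 16, 89570176 to 89571183, minus strand), which encodes a larger shaft protein with less cysteine than most, fell by 1.23 (SE 0.17). In both genes the groups were far apart and control 261 was the highest library.

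The genes with over 25% glycine and tyrosine codons and no more than 30% cysteine codons all lie on chromosome 16. Besides Krtap8-1 and Krtap7-1, 9 were tested. Krtap22-2 stood at 10.1, 7.53 and 7.19 FPKM in the ricEKO-labelled libraries, against 34.99, 29.1 and 21.9 FPKM in the controls. Krtap16-3 stood at 1.21, 0.269 and 1.07 FPKM in the ricEKO-labelled libraries, against 7.12, 4.14 and 3.97 FPKM in the controls. Krtap19-9b stood at 1.62, 1.63 and 0.494 FPKM in the ricEKO-labelled libraries, against 6.22, 3.13 and 3.31 FPKM in the controls. Krtap22-2 (-1.67 ± 0.19), Krtap16-3 (-1.72 ± 0.27) and Krtap19-9b (-1.21 ± 0.30) fell, all as log2 differences ± SE, the form used from here on. Of these, Krtap16-3 reached 1 FPKM in the controls alone, and ricEKO-labelled 265 stood apart at the low end. Krtap6-5 stood at 3.54, 2.48 and 3.42 FPKM in the ricEKO-labelled libraries, against 9.92, 6.1 and 5.47 FPKM in the controls. Krtap6-1 stood at 3.59, 2.73 and 3.18 FPKM in the ricEKO-labelled libraries, against 7.95, 5.47 and 4.19 FPKM in the controls. Krtap19-5 stood at 0.712, 0.151 and 0.131 FPKM in the ricEKO-labelled libraries, against 1.64, 1.14 and 0.904 FPKM in the controls. Krtap6-5 (-0.95 ± 0.21), Krtap6-1 (-0.69 ± 0.20) and Krtap19-5 (-0.76 ± 0.21) fell too. The call of Krtap6-1 was lost under 14 of 19 alternatives (limma adjusted p up to 0.161) and that of Krtap19-5, which reached 1 FPKM in the controls alone, under 10 of 17 (up to 0.130). That of Krtap6-5 was lost under 6 of 19 (limma adjusted p up to 0.0696) and that of Krtap19-9b under 5 of 18 (up to 0.0815). Without ricEKO-labelled 265 or 266 all 4 of these calls were lost, and without control 261 all but that of Krtap6-5. Krtap6-2 (-0.28 ± 0.17), Krtap21-1 (-0.63 ± 0.25) and Krtap19-3 (-0.77 ± 0.25) did not pass, with limma adjusted p = 0.276, 0.119 and 0.0653.

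Other members on chromosome 16 encode proteins with less cysteine, and Krtap15 among them had the largest difference of the family. Krtap15 stood at 2.12, 1.27 and 1.37 FPKM in the ricEKO-labelled libraries, against 16.6, 6.69 and 6.07 FPKM in the controls. Krtap14 stood at 1.27, 1.03 and 1.62 FPKM in the ricEKO-labelled libraries, against 10.4, 5.36 and 4.28 FPKM in the controls. Krtap15 (-1.95 ± 0.35, limma adjusted p = 0.0108) fell most, followed by Krtap16-3, Krtap22-2 and Krtap14 (-1.67 ± 0.28). This order depends on the added 1 FPKM. With a pseudocount of 0.1, Krtap16-3 (-2.59) came before Krtap15 (-2.43), and Krtap14 (-2.19) before Krtap22-2 (-1.77). In GENCODE M21, Krtap15 (ENSMUSG00000022931, chromosome 16, 88820215 to 88829844, plus strand) overlaps Krtap14 (ENSMUSG00000074928, chromosome 16, 88818667 to 88826145, minus strand) on the opposite strand and 4930553J12Rik on its own. Krtap14 shares no 50-base word with another transcript on either strand, while Krtap15 shares 14.6% of its words with 4930553J12Rik, so the split between those 2 is uncertain. Krtap26-1 stood at 5.88, 2.93 and 3.09 FPKM in the ricEKO-labelled libraries, against 18.7, 11.6 and 12.7 FPKM in the controls. Krtap13-1 stood at 10.9, 9.58 and 10.2 FPKM in the ricEKO-labelled libraries, against 28.1, 18.8 and 20.9 FPKM in the controls. Krtap24-1 stood at 3.13, 2.25 and 2.75 FPKM in the ricEKO-labelled libraries, against 8.05, 5.45 and 5.53 FPKM in the controls. Krtap26-1 (-1.65 ± 0.26), Krtap13-1 (-1.06 ± 0.14) and Krtap24-1 (-0.97 ± 0.16) fell, and in all 3 control 261 was the highest library.

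On chromosome 11 the Krtap3 genes were the most abundant after Krtap17-1 in the controls. Krtap3-1 stood at 24.7, 17.9 and 19.2 FPKM in the ricEKO-labelled libraries, against 61.3, 40.4 and 43.1 FPKM in the controls. Krtap3-3 stood at 18.5, 16.6 and 18.1 FPKM in the ricEKO-labelled libraries, against 44.5, 28.6 and 31.1 FPKM in the controls. Krtap3-2 stood at 6.49, 8.503 and 6.04 FPKM in the ricEKO-labelled libraries, against 18.1, 15.7 and 20.8 FPKM in the controls. Krtap3-1 (-1.18 ± 0.18), Krtap3-3 (-0.91 ± 0.16) and Krtap3-2 (-1.26 ± 0.14) fell. Their transcripts share stretches: of all 50-base words of Krtap3-3, 41.3% also occur in another gene's transcript, so the split between them is uncertain. Krtap1-5 stood at 8.51, 7.55 and 7.68 FPKM in the ricEKO-labelled libraries, against 18.1, 11.6 and 12.98 FPKM in the controls. Krtap1-3 stood at 4.63, 4.42 and 4.63 FPKM in the ricEKO-labelled libraries, against 12.5, 9.04 and 10.4 FPKM in the controls. Krtap1-4 stood at 5.25, 3.34 and 4.38 FPKM in the ricEKO-labelled libraries, against 12.6, 7.42 and 7.74 FPKM in the controls. Krtap1-5 (-0.75 ± 0.15), Krtap1-3 (-1.06 ± 0.11) and Krtap1-4 (-0.93 ± 0.22) fell. Without ricEKO-labelled 265 or 266 the calls of Krtap1-5 and Krtap1-4 were lost. Krtap9-3 stood at 6.74, 5.51 and 5.71 FPKM in the ricEKO-labelled libraries, against 22.7, 13.9 and 16.2 FPKM in the controls. Krtap9-1 stood at 3.22, 2.403 and 2.43 FPKM in the ricEKO-labelled libraries, against 8.59, 5.73 and 6.63 FPKM in the controls. Krtap2-4 stood at 4.42, 3.01 and 3.19 FPKM in the ricEKO-labelled libraries, against 9.002, 5.96 and 7.41 FPKM in the controls. Krtap9-3 (-1.39 ± 0.17) fell most on this chromosome, and Krtap9-1 (-1.11 ± 0.15) and Krtap2-4 (-0.89 ± 0.17) fell too. Krtap16-1 stood at 6.61, 4.65 and 5.78 FPKM in the ricEKO-labelled libraries, against 13.9, 8.91 and 8.18 FPKM in the controls. It fell by 0.74 (SE 0.20), a call lost under 9 of 19 alternatives (limma adjusted p up to 0.117), among them leaving out control 261 or 262 or any ricEKO-labelled library.

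All 8 tested members of the Krtap4 subfamily, which encode proteins in which over 30% of codons are for cysteine, fell. Krtap4-16 stood at 5.24, 3.35 and 3.095 FPKM in the ricEKO-labelled libraries, against 12.9, 7.53 and 8.99 FPKM in the controls. Krtap4-1 stood at 4.803, 3.64 and 3.403 FPKM in the ricEKO-labelled libraries, against 11.7, 7.84 and 8.22 FPKM in the controls. Krtap4-7 stood at 4.45, 3.53 and 4.14 FPKM in the ricEKO-labelled libraries, against 11.9, 7.68 and 7.98 FPKM in the controls. These 3 were the most abundant of the subfamily, at -1.14 ± 0.22, -1.04 ± 0.17 and -0.996 ± 0.16. Krtap4-9 stood at 3.68, 2.29 and 2.48 FPKM in the ricEKO-labelled libraries, against 9.27, 6.66 and 6.07 FPKM in the controls. Krtap4-8 stood at 2.56, 1.78 and 2.47 FPKM in the ricEKO-labelled libraries, against 7.04, 5.71 and 5.68 FPKM in the controls. Krtap4-6 stood at 1.86, 2.43 and 1.93 FPKM in the ricEKO-labelled libraries, against 7.74, 5.01 and 5.07 FPKM in the controls. Differences were -1.13 ± 0.19, -1.13 ± 0.13 and -1.16 ± 0.16 for these. Krtap4-2 stood at 2.44, 1.69 and 1.57 FPKM in the ricEKO-labelled libraries, against 5.09, 4.99 and 4.96 FPKM in the controls. Krtap4-13 stood at 0.461, 0.389 and 0.338 FPKM in the ricEKO-labelled libraries, against 1.66, 1.34 and 1.01 FPKM in the controls. Krtap4-2 (-1.06 ± 0.12) fell by about as much, and Krtap4-13 (-0.73 ± 0.14) reached 1 FPKM in the controls alone and shares 81.3% of its 50-base words with other genes. The call of Krtap4-16 was lost without ricEKO-labelled 265 or 266, and that of Krtap4-13 without 266 and under both length adjustments. Differences within the subfamily ran from -1.16 to -0.73, against -1.95 to -0.13 over the family. The end at -0.73 is Krtap4-13, and adding 1 FPKM shrinks the difference of such a low gene. By ratio of mean FPKM, ricEKO-labelled over control, Krtap4-13 was the lowest of the subfamily (0.297, in a range of 0.297 to 0.440). With a pseudocount of 0.1 its difference was -1.515.

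The clusters outside chromosomes 11 and 16 hold few expressed members. Krtap10-4 stood at 4.39, 3.68 and 3.62 FPKM in the ricEKO-labelled libraries, against 9.13, 6.78 and 6.16 FPKM in the controls. Krtap12-1 stood at 1.98, 1.65 and 0.958 FPKM in the ricEKO-labelled libraries, against 5.27, 3.81 and 3.48 FPKM in the controls. Both genes of chromosome 10 fell (-0.76 ± 0.14 and -1.04 ± 0.19). In humans, genes of these 2 subfamilies are expressed in the cuticle, the outer cell layer of the shaft. They lie inside the gene Tspear, and Krtap10-4 shares 41.95% of its 50-base words with other genes. Krtap28-13 stood at 3.66, 2.23 and 3.86 FPKM in the ricEKO-labelled libraries, against 8.36, 5.94 and 6.89 FPKM in the controls. Krtap28-10 stood at 5.84, 4.55 and 4.61 FPKM in the ricEKO-labelled libraries, against 11.4, 5.28 and 9.48 FPKM in the controls. Of the pair on chromosome 1, Krtap28-13 fell (-0.94 ± 0.18) and Krtap28-10 (-0.65 ± 0.25; limma adjusted p = 0.102) did not pass, with control 262 inside the range of the ricEKO-labelled libraries. Krtap5-2 stood at 2.77, 1.53 and 2.85 FPKM in the ricEKO-labelled libraries, against 4.12, 2.56 and 3.16 FPKM in the controls. Krtap5-5 stood at 1.75, 1.52 and 1.56 FPKM in the ricEKO-labelled libraries, against 3.62, 1.9 and 2.19 FPKM in the controls. Neither gene of chromosome 7 passed, at -0.35 ± 0.20 and -0.42 ± 0.18 (limma adjusted p = 0.255 and 0.132).

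**Figure D2:**
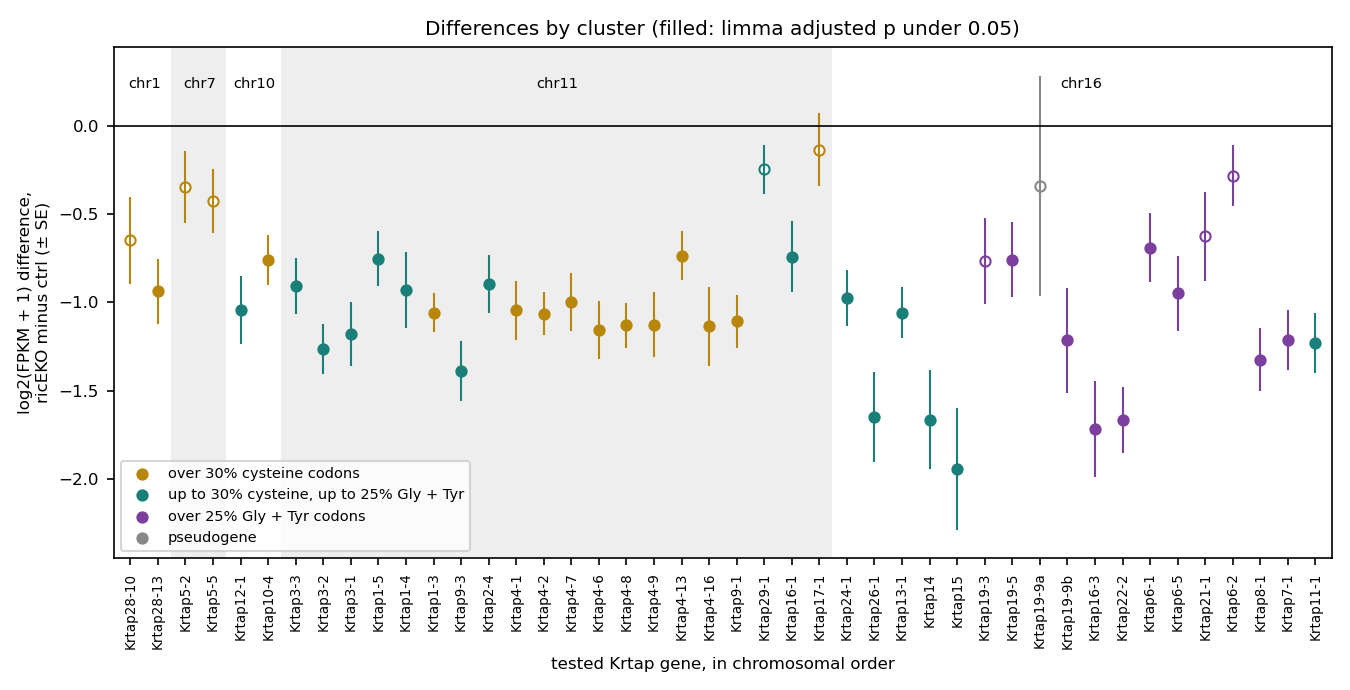
Log2(FPKM + 1) difference ± SE (y axis), ricEKO minus ctrl, of the 44 tested Krtap genes in chromosomal order, coloured by codon class, with filled points for the 35 that fell. All points lie below 0, and Krtap17-1 at -0.13 is the closest to 0.

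By chromosome, 18 of 20 tested members fell on chromosome 11 (median log2 difference -1.05) and 14 of 18 on chromosome 16 (-1.14). On chromosome 10 both of 2 fell, on chromosome 1 it was 1 of 2, and on chromosome 7 none of 2. Summed FPKM of the chromosome 16 members was 163, 128 and 136 in the ricEKO-labelled libraries and 485, 309 and 325 in the controls. That of the chromosome 11 members was 173, 139 and 165 in the ricEKO-labelled libraries and 367, 258 and 261 in the controls. Differences between clusters were not tested, since members of a cluster are not replicates.

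Krtap17-1 (ENSMUSG00000078252, chromosome 11, 99993234 to 99993994, minus strand), the last gene of the chromosome 11 cluster, was the most abundant tested member without a call. Krtap17-1 stood at 57.3, 44.9 and 67.7 FPKM in the ricEKO-labelled libraries, against 76.9, 63.01 and 47.5 FPKM in the controls. The groups overlapped, with means of 56.6 ± 11.4 FPKM in the ricEKO-labelled libraries and 62.5 ± 14.7 FPKM in the controls (SD, n = 3 each). The log2 difference was -0.13 ± 0.21 and did not pass (limma adjusted p = 0.666). Its sign turned after a length adjustment (0.05), and without control 261 (0.03) or ricEKO-labelled 265 (0.02). Relative to the mean log2 level of the other 43 tested members, Krtap17-1 stood at 3.65 ± 0.26 in the ricEKO-labelled libraries and 2.78 ± 0.24 in the controls (SD, n = 3 each). That difference of 0.87 had a two-sided exact permutation p of 0.10, the smallest that 3 against 3 libraries can give, for a gene chosen after its values were seen. Because Krtap17-1 had the difference closest to 0 of the tested members, this p cannot show that it differs from the others. Its share of the summed Krtap FPKM was 16.1%, 15.9% and 21.2% in the ricEKO-labelled libraries and 8.59%, 10.6% and 7.69% in the controls. It thus ranked first of the family by mean share in the ricEKO-labelled libraries and at place 3 in the controls, where Krtap8-1 and Krtap7-1 ranked above it. It shares no 50-base word with another gene.

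The 8 other tested members without a call were Krtap28-10, Krtap5-2, Krtap5-5, Krtap6-2, Krtap21-1 and Krtap19-3, given above, and Krtap29-1 and the pseudogene Krtap19-9a. Krtap29-1 stood at 0.734, 0.7103 and 0.733 FPKM in the ricEKO-labelled libraries, against 1.43, 0.877 and 0.874 FPKM in the controls. It differed by -0.24 ± 0.14 (limma adjusted p = 0.246) and lies between Krtap9-5 and Krtap16-1. Krtap19-9a was listed at 0, 0 and 1.15 FPKM in the ricEKO-labelled libraries, against 3.37, 0 and 0 FPKM in the controls. Its difference of -0.34 ± 0.62 rests on 1 library in each group. The 13 members that were not tested stayed at or under 0.898 FPKM in every library. Among them, 3 were listed at 0 throughout (Krtap9-5, Krtap19-1 and Krtap20-2), 9 had a lower mean in the ricEKO-labelled libraries and 1 a higher one. The exception was Krtap13, at 0.327, 0.1595 and 0.472 FPKM in the ricEKO-labelled libraries and 0, 0.0561 and 0 FPKM in the controls. Of its 50-base words 24.9% occur in other transcripts, first in 2310057N15Rik, so its value is uncertain.

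Within each group the members moved together by library. Control 261 was the highest control in 43 of the 44 tested members, and ricEKO-labelled 263 the highest of its group in 33. The median log2 deviation from each member's mean over 6 libraries was -0.32, -0.61 and -0.52 in the ricEKO-labelled libraries and 0.83, 0.31 and 0.38 in the controls. Control 261 thus stood well above the other 2, which were close to each other. Without control 261, 31 of 41 tested members fell and 0 rose, where 9.55% of all tested genes fell. The median log2 difference of the members was then -0.90. Leaving out any other single library gave 26 to 35 fallen members and 0 that rose, where 7.3% to 16.8% of all tested genes fell. Of the 35 calls, 25 held under every alternative in which the gene was tested, and 10 were lost under at least 1. Krtap12-1, among the 25, was not tested with the minimum of 5 FPKM. Calls were lost most often without ricEKO-labelled 266 (9 calls) or 265 (8) or after a length adjustment (8).

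The kinds of protein can be read from the coding codons in GENCODE M21. Classes were set after the values were seen: over 30% cysteine codons, over 25% glycine and tyrosine codons together, and the rest. Of the 16 tested members over 30% cysteine 12 fell (median log2 difference -1.02), of the 11 rich in glycine and tyrosine 8 fell (-0.95), and of the 16 others 15 fell (-1.05). The pseudogene has no coding codons. By ratio of mean FPKM, ricEKO-labelled over control, the medians in the same order were 0.427, 0.390 and 0.427. The class with the smallest fall on the log2 scale thus had the lowest ratio. The medians lay close together, and the class was not tested against the difference because close copies share sequence. In Krtap8-1, 47.5% of codons were for glycine or tyrosine and 4.92% for cysteine, in Krtap4-9 3.69% and 38.9%. Of the tested members 4 mix both, with over 30% cysteine and over 30% glycine and tyrosine codons: Krtap28-10, Krtap28-13, Krtap5-2 and Krtap17-1. Of these 4 only Krtap28-13 fell, and Krtap17-1 had 35.8% cysteine and 34.9% glycine and tyrosine codons. Krtap5-3 has the same mix and was not tested. The set was picked after its values were seen.

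**Figure D3:**
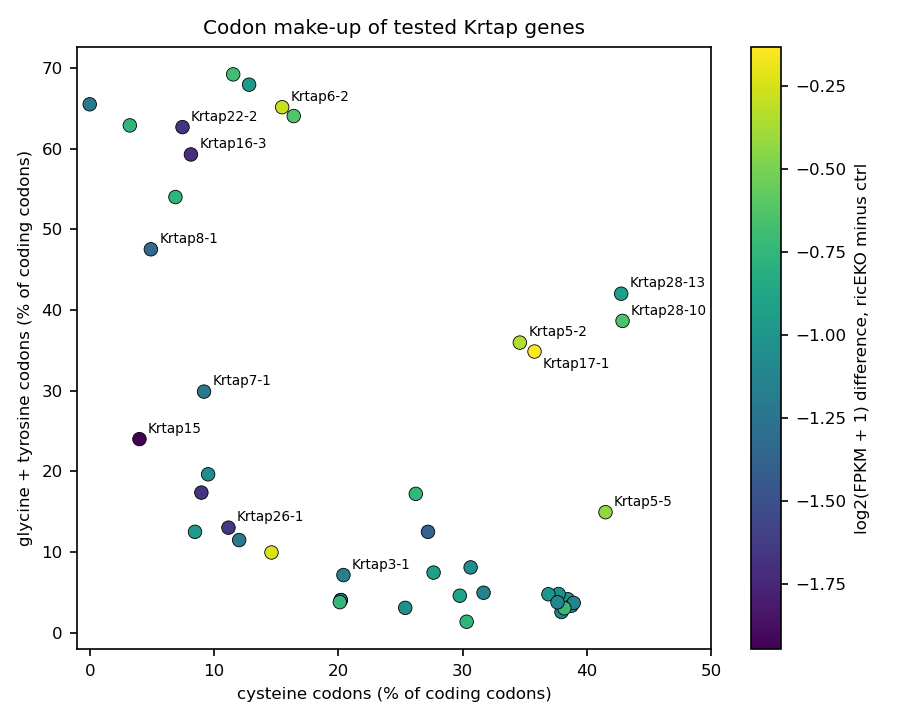
Cysteine codons (x axis) against glycine and tyrosine codons (y axis), both as percent of coding codons, for the 43 tested Krtap genes with a coding sequence, coloured by log2 difference. Krtap17-1 and Krtap5-2, side by side right of the middle, are among the lightest points (smallest differences), at -0.13 and -0.35.

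Close copies share sequence, so the counts were also taken by how much was shared. Of the 44 tested members, 18 have under 5% of their 50-base words in any other gene's transcript, and 14 of these 18 fell (median log2 difference -1.10). Of the 26 others 21 fell (-0.96). Of 39 tested members that overlap no other annotated gene 30 fell (-0.996).

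The keratins that Krtap proteins bind were lower too. Of 16 hair shaft keratins listed, 14 were tested, 13 fell and 0 rose, with a median log2 difference of -0.96 beside -1.02 for the tested Krtap genes. Krt35 stood at 102, 88.6 and 93.9 FPKM in the ricEKO-labelled libraries, against 202, 159 and 198 FPKM in the controls. Krt87 stood at 53.6, 45.9 and 49.4 FPKM in the ricEKO-labelled libraries, against 97.4, 77.6 and 85.4 FPKM in the controls. Krt32 stood at 23.1, 20.7 and 24.01 FPKM in the ricEKO-labelled libraries, against 43.1, 40.7 and 46.7 FPKM in the controls. Krt35 (-0.96 ± 0.11), an early keratin of the matrix and cuticle, Krt87 (-0.79 ± 0.10) and Krt32 (-0.92 ± 0.08), a cuticle keratin, fell. The cortex keratins Krt33b (-1.19 ± 0.13), Krt31 (-1.09 ± 0.13) and Krt33a (-0.95 ± 0.15) fell as well. Krt85 was not analysed here. Krt81 (-0.65 ± 0.28) was the tested member that did not pass (limma adjusted p = 0.141), and Krt84 was not tested. Krt84 stood at 0.798, 0.983 and 1.09 FPKM in the ricEKO-labelled libraries, against 0.322, 0.1698 and 0.223 FPKM in the controls, so this untested keratin was higher in all 3 ricEKO-labelled libraries, and 1 shaft keratin was called higher with no filter on low values or without ricEKO-labelled 263. Summed Krtap FPKM per summed shaft keratin FPKM was 1.28, 1.18 and 1.27 in the ricEKO-labelled libraries and 1.54, 1.37 and 1.21 in the controls. These ranges overlap, with means of 1.24 ± 0.0545 and 1.37 ± 0.162 for ricEKO-labelled and control libraries (SD, n = 3 each). The Krtap sum includes Krtap17-1, which had no call. Krtap17-1 held 15.9% to 21.2% of that sum in the ricEKO-labelled libraries and 7.69% to 10.6% in the controls. The ratio without it was not taken, so the overlap does not show that the other members fell in step with the shaft keratins.

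Genes of the inner root sheath and companion layer, which surround the shaft, were mostly lower as well. Of 12 listed 11 were tested, 9 fell and 1 rose, with a median log2 difference of -0.79. The sheath keratins Krt71 (-0.97 ± 0.12), Krt25 (-0.81 ± 0.13), Krt27 (-0.87 ± 0.11), Krt73 (-0.67 ± 0.10), Krt28 (-0.82 ± 0.10) and Krt72 (-1.24 ± 0.12) and the deiminase Padi3 (-0.79 ± 0.10) fell, while Tchhl1 (0.48 ± 0.13) rose. Krtap FPKM per FPKM of this list was 0.288, 0.258 and 0.299 in the ricEKO-labelled libraries and 0.412, 0.340 and 0.296 in the controls, so control 264 lay inside the range of the ricEKO-labelled libraries. Krtap17-1 is again part of the Krtap sum. Among 8 genes of shaft assembly and shaft disorders 7 fell and 1 rose. The cysteine-rich calcium-binding protein S100a3 (-0.99 ± 0.15), Crym (-0.87 ± 0.13), Tgm3 (-1.23 ± 0.12), a transglutaminase, Selenbp1 (-1.48 ± 0.20) and the lipase Liph (-0.41 ± 0.12) fell, and the desmocollin Dsc2 (1.04 ± 0.25) rose. Of 20 follicle regulators 5 fell and 0 rose, with a median of -0.10. The counts of these lists, and of the shaft keratins, stand beside 15.6% of all tested genes that fell and 7.91% that rose. Hoxc13 (-0.53 ± 0.11), a homeobox factor needed for hair shaft genes, Msx2 (-0.52 ± 0.12), Gata3 (-0.34 ± 0.08), a factor of the inner root sheath, Foxq1 (-0.40 ± 0.09) and Dlx3 (-0.29 ± 0.08) fell. Lhx2 (-0.02 ± 0.09) and Ovol1 (0.15 ± 0.11) did not pass. Without control 261, and without ricEKO-labelled 265 or 266, 0 of the 20 fell by limma. Hoxc13 stood at 20.7, 19.49 and 17.1 FPKM in the ricEKO-labelled libraries, against 31.5, 24.3 and 28.6 FPKM in the controls. Its groups do not overlap, and 29.2% of all tested genes also had every ricEKO-labelled library below every control.

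**Figure D4:**
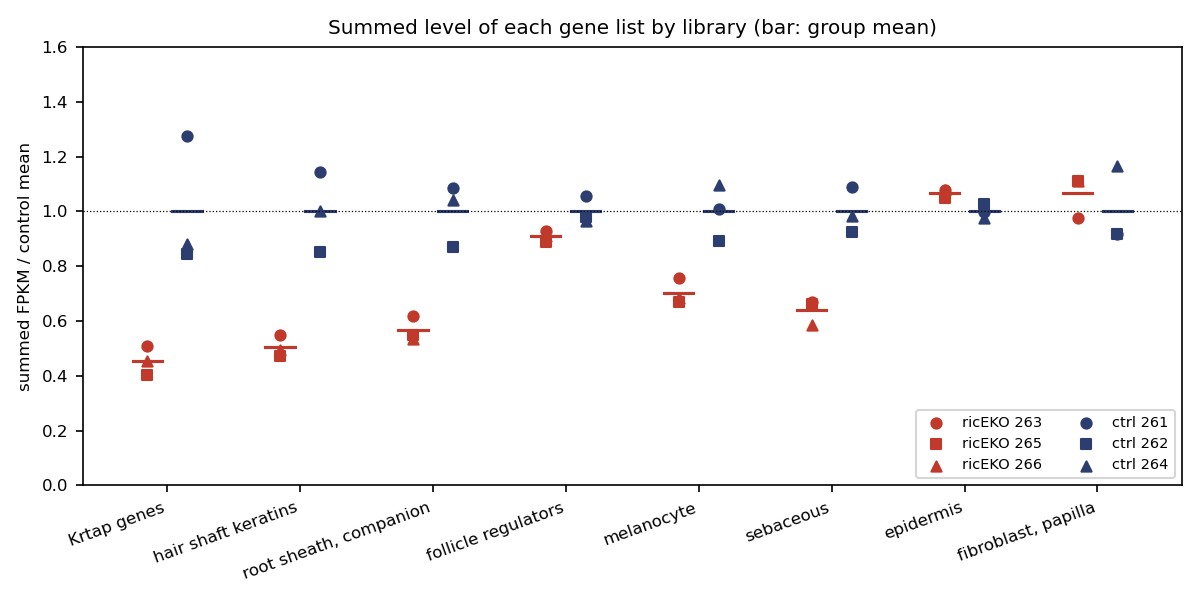
Summed FPKM of each gene list in each library divided by that list's control mean (y axis from 0), with ricEKO-labelled libraries in red left of the controls in blue and bars at group means. The Krtap sum of the ricEKO-labelled libraries, 282 to 357 FPKM, lies below the control range of 593 to 895 FPKM, and the epidermis list runs from 36500 to 37490 FPKM in ricEKO-labelled libraries and from 33900 to 35680 FPKM in controls.

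Markers of other cells that epidermal separation can hold moved as well, and their part in the Krtap result was not tested. Of 8 melanocyte genes 5 fell and 0 rose, with sums of 279 to 316 FPKM in the ricEKO-labelled libraries and 373 to 458 FPKM in the controls. Of 10 sebaceous gland genes 8 fell and 0 rose, with sums of 153 to 175 FPKM and 241 to 284 FPKM in ricEKO-labelled and control libraries. Of 12 dermal fibroblast and papilla genes 5 were tested, 2 rose and 0 fell, with sums of 228 to 260 FPKM in the ricEKO-labelled libraries and 214 to 272 FPKM in the controls. The papilla markers Corin, Sox2 and Alx4 were at most 0.624 FPKM in every library. Of the 6 muscle genes listed 3 were tested and 0 fell or rose by limma. Of 6 endothelial and blood genes 3 were tested and 0 passed, though the median log2 difference was -0.72. These were Hbb-bs (-0.88 ± 0.34), Hba-a1 (-0.72 ± 0.32) and Ptprc (-0.46 ± 0.17), with limma adjusted p = 0.106, 0.143 and 0.0992. Of 8 epidermis markers 2 of the basal layer rose, Krt14 (1.20 ± 0.14) and Krt5 (0.57 ± 0.10), and 1 fell, Dsg1a (-0.33 ± 0.09). Mean Krt14 was 5949 FPKM in the ricEKO-labelled libraries and 2582 FPKM in the controls. These counts stand beside 15.6% of all tested genes that fell and 7.91% that rose.

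Gene length moved with the label, and the values were also adjusted for it. Across 13467 tested genes with a known length, the deviation from the gene mean had a Spearman's rho with exonic length of 0.173, 0.191 and 0.263 in the ricEKO-labelled libraries and -0.0071, 0.0028 and -0.36 in the controls, over genes that are not independent. The tested Krtap genes have a median exonic length of 884 bases, against 4036 bases for all tested genes. Of 1155 other tested genes of up to 1000 bases, 14.5% fell, with a median log2 difference of -0.16. Of the 32 Krtap genes of that length 26 fell, with a median of -1.02. Of 1575 other genes of over 1000 and up to 2000 bases 22.3% fell, with a median of -0.17, and 9 of the 12 Krtap genes of that length fell, with a median of -1.01. After each library's values were adjusted for a smooth trend in length, 27 of 44 Krtap genes fell, 0 rose and the median was -0.84. Of all genes so adjusted 11.4% fell. With GC content added, 29 Krtap genes fell, 0 rose and the median was -0.83, where 11.8% of all tested genes fell. Without control 264, whose rho was furthest from 0, 35 of 44 Krtap genes fell and 0 rose, where 16.8% of all tested genes fell.

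**Figure D5:**
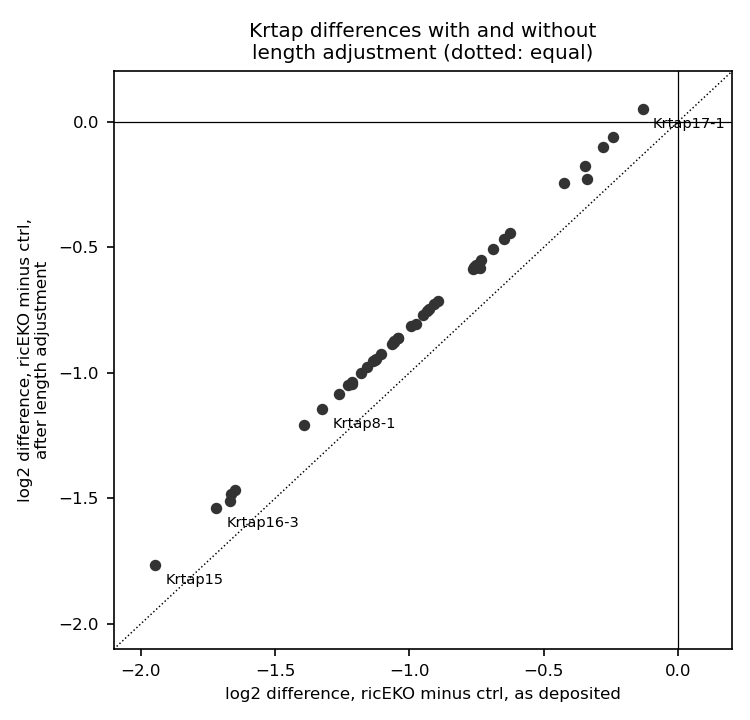
Log2 difference of each tested Krtap gene, ricEKO minus ctrl, as deposited (x axis) and after the length adjustment (y axis), with a dotted line where both are equal. The points lie above the line by a similar step, and Krtap17-1 crosses 0, at -0.13 as deposited and 0.05 after adjustment.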

How the data were processed

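Total RNA of separated mouse epidermis was measured in 6 libraries. The authors deposited 1 table of FPKM with a column per library, and CASAVA and Cufflinks were used with GRCm38, per the submitters' processing notes. Aligner, annotation and strandedness: not given in the sources used here. Columns were matched to samples by title, and groups came from the titles. GENCODE M21 matched 49109 of 49452 identifiers; 66 second rows of a symbol were left out. Because FPKM are not counts, values were analysed as log2(FPKM + 1) in limma 3.58.1 (R 4.3.3) with an intensity trend (prior degrees of freedom 2.80), 3 libraries per group and no covariates. Genes had to reach a group mean of 1 FPKM. P-values are two-sided and adjusted by Benjamini-Hochberg across the 13500 genes tested; the threshold was 0.05. The fit was tested on simulated data. The Krtap genes and all gene lists were chosen with earlier results of these data known. Values in every library are given for called members, for the most abundant member of each cluster and subfamily and for the largest changes; of each hair list, the 4 most abundant genes and the 4 with the smallest p are named. Shared sequence was counted as 50-base words of GENCODE transcripts on both strands. Alternatives were pseudocounts of 0.1 and 5, no filter, a minimum of 5 FPKM, 3 scalings, length and GC adjustments, other variance models, all rows kept and each library left out. Figures used Python 3.11.15 and matplotlib 3.10.9.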

Additional observations from a re-analysis of the deposited data

How the results depend on the processing

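Across the 19 alternatives, 26 to 42 Krtap genes fell and 0 rose, against 35 and 0 as reported, and the highest count came with array weights. Of all tested genes 29.2% then fell, the highest share of any setting, against 15.6% as reported. The 26 were counted without ricEKO-labelled 266, where 7.42% of all tested genes fell. The lowest share was 5.58%, with no filter. The Krtap family median log2 difference stayed below 0. It moved by more than the spread between replicates with a pseudocount of 5 (-0.58), which shrinks the change of low genes by construction, and with array weights (-1.26), where the cause was not tested. In the other settings it ran from -1.21 with a pseudocount of 0.1 to -0.83 with the length and GC adjustment. Leaving out 1 library at a time gave 26 to 35 fallen Krtap genes and medians of -1.08 to -0.90, where 7.3% to 16.8% of all tested genes fell. Krtap17-1 had no call and changed sign in 4 settings, at 0.04 to 0.05 with length adjustments and 0.02 to 0.03 without 265 or control 261. Of 817 pairs of a single Krtap gene and an alternative, 746 kept direction and side of the threshold, 59 ended a call, 8 made one, 0 reversed one and 4 were these sign changes, and the calls lost most often were those of Krtap6-1, Krtap19-5 and Krtap16-1. Over all genes the count of called genes was 3169, against 6272 with array weights and 1462, 1745, 1538 and 1923 without 263, 265, 266 or control 261. The count of shaft keratins that fell ran from 11 to 14, and that of follicle regulators from 0 to 9. No paired analysis was possible because the library numbers differ for every library. Read counts per gene are unknown, so no counting error can be given for members near 1 FPKM, and strandedness and the treatment of shared reads limit close copies.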

Other observations

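Between the first and last Krtap gene of the clusters on chromosomes 7, 10, 11 and 16, GENCODE M21 places 45 further protein-coding genes with no Krtap symbol, and 23 of them were tested. This set was defined by position after the data had been seen. Of the 23, 19 fell and 0 rose by limma at an adjusted p threshold of 0.05, where 15.6% of all tested genes fell, and their median log2 difference was -0.94. All 6 tested on chromosome 10 fell, as did 11 of 12 on chromosome 11 and 2 of 3 on chromosome 16, against 0 of 2 on chromosome 7. Of the 23, 7 reached 1 FPKM in the controls alone, 5 of them on chromosome 10, where the filter itself favoured a fall. Of the 15 that reached it in both groups 13 fell, with a median of -0.97. Gm10229, on chromosome 16 from 89015284 to 89015846, was the most abundant at 11.6, 4.36 and 7.97 FPKM in the ricEKO-labelled libraries, against 30.9, 22.5 and 19.53 FPKM in the controls, a log2 difference of -1.56 ± 0.31 (SE). In it 70.1% of codons are for glycine or tyrosine. Gm11559, Gm11567 and Gm11568 on chromosome 11 have 37.7%, 37.4% and 37.9% cysteine codons and fell by 1.26, 1.29 and 1.01 on the log2 scale. Several of these genes share 50-base words with named Krtap genes, so their values are not independent of them. The exception on chromosome 11 was Gm11939, at 1.12, 1.16 and 1.16 FPKM in the ricEKO-labelled libraries and 0.219, 0.886 and 1.25 FPKM in the controls, which did not pass (limma adjusted p = 0.350). Its mean reached 1 FPKM in the ricEKO-labelled libraries alone, so for Gm11939 the filter itself favoured a higher value.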
